A study of Homo sapiens with 6 samples.

Results

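HMLE cells carrying Snail and HMLE cells given TGF-β were compared directly while both were under docosahexaenoic acid (DHA), to find which differences between the 2 inducers of the epithelial-mesenchymal transition (EMT) were present with DHA. The 2 arrays, labelled Snail+DHA and TGFb+DHA, are 2 of the 6 in the series, and the comparison covered the 11315 genes above background on at least 1 of them, of 20046 genes with a symbol on the array. HMLE cells are human mammary epithelial cells that were immortalized in culture. Snail+DHA cells carried ectopic Snail, had no added TGF-β and received 20 μM DHA. TGF-β+DHA cells received 1 ng/mL TGF-β and 20 μM DHA, without Snail. The other arrays were DHA alone (20 μM, no inducer), Snail alone, TGF-β alone (1 ng/mL) and the Vector control, which had neither inducer nor DHA. The TGF-β dose is that of the array labels, and the culture methods of the study give a higher one without tying it to the arrays. For ectopic Snail the study describes a retroviral vector with hygromycin selection and also stable lines received as a gift. It does not say which were used for the arrays. TGF-β was a ligand added to the medium, so the inducer, the route and the time since induction cannot be told apart in this comparison.

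EMT is the program by which epithelial cells give up junctions and polarity and take on mesenchymal, migratory features. Snail is a zinc finger repressor that binds E-box motifs in the promoters of epithelial genes, the E-cadherin gene CDH1 being the classical target. TGF-β acts through its receptors and SMAD proteins and can induce Snail and other EMT transcription factors. DHA is an omega-3 polyunsaturated fatty acid that enters membrane phospholipids, is a ligand for the PPAR nuclear receptors and, when oxidized, can induce NRF2 target genes.

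A single Illumina HumanHT-12 v4 array was hybridized for each condition, so no difference has a replicate check and no p-value can be given; the number of arrays limits the precision. Values are the log2 expression values deposited by the authors, quantile normalized between arrays, and each gene is represented by its probe of highest mean. A difference is the log2 value in Snail+DHA cells minus that in TGF-β+DHA cells, and a gene was called higher or lower where the difference was at least 1 on the log2 scale (2-fold). On the 2 arrays 10017 genes in Snail+DHA cells and 10698 genes in TGF-β+DHA cells were above background, against 11104 to 12314 genes on the 4 other arrays. Where a gene was not above background on 1 array its difference is a bound, written as "at least" on the fold scale. Checked against defining markers, KRT5 and KRT14, basal keratins of mammary epithelium, were above background on all 6 arrays. Of the leukocyte markers PTPRC and CD3D were above background on 0 arrays, CD79A on 3 and CD14 on 6, and of the endothelial markers CDH5 and VWF on 0 and PECAM1 on 1. E-cadherin was not above background on either Snail array. The SNAI1 probe was above background on 0 of the 6 arrays, with values of 5.99 in Snail+DHA cells and 5.88 in TGF-β+DHA cells, so it does not check the labels.

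With DHA present, 389 genes were at least 2-fold higher in Snail+DHA cells than in TGF-β+DHA cells, 3.44% of those compared, and 468 were at least 2-fold lower, 4.14%. With genes not above background on 1 array counted at their bounds, 103 genes were at least 4-fold lower and 65 at least 4-fold higher, and 9 were at least 16-fold lower and 2 at least 16-fold higher. The middle 95% of all genes lay between -1.28 and 1.13 around a median of -0.02. Of the genes called higher, 74 were not above background in TGF-β+DHA cells, and of those called lower, 140 were not above background in Snail+DHA cells. Counted at the bounds, 373 genes were at least 2-fold higher and 430 at least 2-fold lower. A second probe above background was present for 279 called genes. Every other probe had the same sign for 252 of them, at least 1 other probe was 2-fold different in the same direction for 130, and 0 genes had another probe 2-fold different in the opposite direction. The split of the calls depended on the scaling: 45.4% of the calls were higher after quantile normalization, against 25.8% (249 higher and 716 lower) when the arrays were brought to a common median. That scaling moved the median difference of all genes to -0.16, and with this shift subtracted, an alternative chosen after seeing the data, the counts were 353 higher and 491 lower.

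The largest positive difference was that of decorin. Decorin (DCN), a small leucine-rich proteoglycan of collagen fibers, had a value of 12.67 in Snail+DHA cells and 6.31 in TGF-β+DHA cells, which was at least 74.1-fold higher. Its 3 other probes above background ranged from -0.05 to 4.28 in log2 difference, so the size of the DCN difference depended on the probe. SRGN, the core protein of serglycin, had 11.81 in Snail+DHA cells and 7.11 in TGF-β+DHA cells (25.9-fold), and its other probe differed by 4.51. MME, the cell surface metalloprotease neprilysin (CD10), had 11.08 in Snail+DHA cells and 7.09 in TGF-β+DHA cells, a difference of 3.99, while its other probe differed by only 0.46. Other large differences belonged to TFPI, an inhibitor of tissue factor (10.61 in Snail+DHA cells, 6.71 in TGF-β+DHA cells), to FBLN5, an elastic fiber protein (10.16 in Snail+DHA cells, 6.50 in TGF-β+DHA cells), and to DPYSL3, a cytoskeletal phosphoprotein (10.62 in Snail+DHA cells, 6.97 in TGF-β+DHA cells). ENPP2 (autotaxin, which makes lysophosphatidic acid) was at least 8.02-fold higher and QPRT (an enzyme of NAD synthesis) at least 9.59-fold higher. Among the 15 genes with the largest positive differences HMOX1 alone had a difference under 2-fold without DHA (0.67).

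The genes with the largest negative differences included many of epithelial keratins, junctions and surfaces. KRT6C, a type II keratin whose copies KRT6A and KRT6B are nearly identical so that the probe may read more than 1 of them, had 8.07 in Snail+DHA cells and 13.88 in TGF-β+DHA cells (56.2-fold). EPCAM, a homophilic adhesion molecule of epithelia, had 6.24 in Snail+DHA cells, not above background, and 11.33 in TGF-β+DHA cells, at least 27.9-fold lower, and its other probes were also lower (-4.12 to -2.56). CD24, a surface sialoglycoprotein used with CD44 to sort mammary stem-like cells, had 7.25 in Snail+DHA cells and 12.20 in TGF-β+DHA cells (30.9-fold), and its other probe differed by -2.72. CD44 itself had 12.75 in Snail+DHA cells and 12.40 in TGF-β+DHA cells, and its other probes differed by -0.62 to -0.03, so neither direction held across its probes. FST (follistatin, an activin antagonist) was at least 20.9-fold lower, with 6.30 in Snail+DHA cells and 10.92 in TGF-β+DHA cells, and its other probe differed by -1.82. FGFR3 had 6.75 in Snail+DHA cells and 10.88 in TGF-β+DHA cells, but its other probe differed by 0.17.

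**Figure D1:**
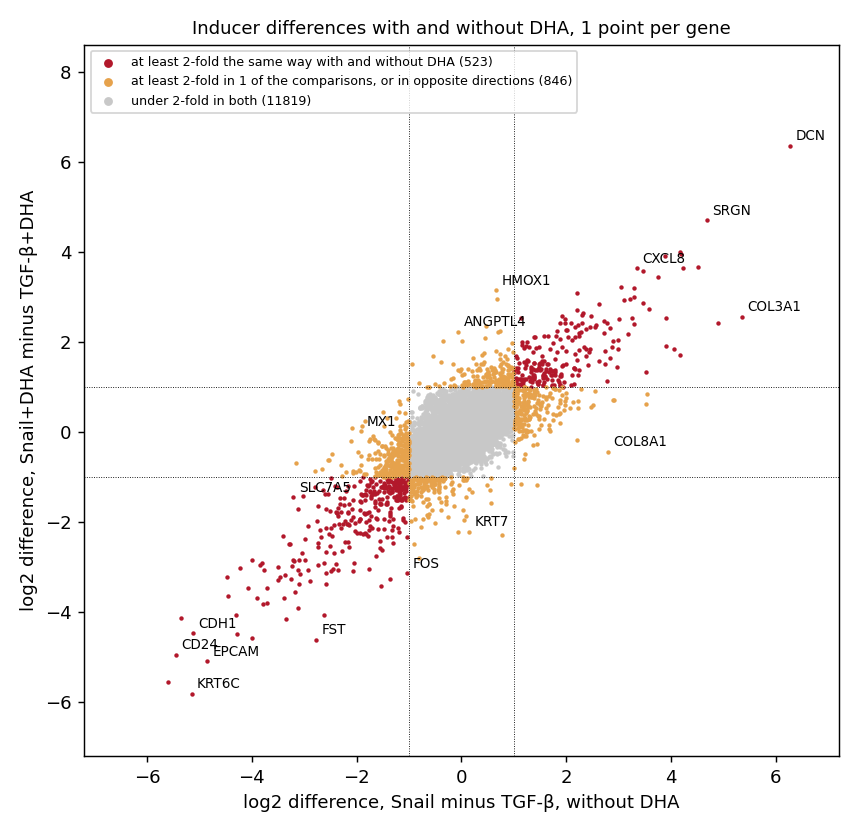
Each point is 1 gene above background on at least 1 of the 4 induced arrays; the x axis is the log2 difference Snail minus TGF-β without DHA, the y axis the log2 difference Snail+DHA minus TGF-β+DHA, and dotted lines mark 2-fold. Genes such as DCN and KRT6C lie far out along the diagonal, whereas HMOX1 and ANGPTL4 lie high and COL8A1 and MX1 near 0 on the y axis.

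Of 46 epithelial junction and identity genes on the array 37 were compared, and 27 of them (73.0%, against 4.14% of all genes) were at least 2-fold lower in Snail+DHA cells and 0 at least 2-fold higher. The list median was -1.76, against -0.02 for all genes, and -1.60 at the bounds. Of the 37 genes 24 were not above background on 1 of the arrays, and such a gene entered the comparison through the array where it was high, which was that of TGF-β+DHA cells for all 24. Of the 13 genes above background on both arrays 8 were at least 2-fold lower. E-cadherin (CDH1), the adherens junction cadherin, had 6.06 in Snail+DHA cells, not above background, and 10.53 in TGF-β+DHA cells, at least 15.9-fold lower. P-cadherin (CDH3) had 7.04 in Snail+DHA cells and 10.60 in TGF-β+DHA cells (11.8-fold). The TGF-β+DHA value of E-cadherin lay near the 11.15 of cells given DHA alone. In these bulk samples fewer cells of a type and less RNA per cell cannot be told apart. RAB25, a RAB11-family GTPase of apical recycling in epithelia, was not above background in Snail+DHA cells and had 10.49 in TGF-β+DHA cells (at least 15.5-fold). LAD1 (ladinin, a basement membrane protein) had 6.53 in Snail+DHA cells, not above background, and 12.09 in TGF-β+DHA cells (at least 47.2-fold). For LAD1 another probe differed by 0.40, in the opposite direction.

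Further members of the list had other roles. Among desmosomal genes DSP (desmoplakin) had 6.58 in Snail+DHA cells and 10.04 in TGF-β+DHA cells, and JUP (plakoglobin) had 7.54 in Snail+DHA cells and 10.76 in TGF-β+DHA cells. Others were under 2-fold, such as PKP1 (-0.86), DSG2 (-0.42), PPL (-0.23) and EVPL (-0.21). SPINT2, a Kunitz inhibitor of epithelial surface proteases, had 8.56 in Snail+DHA cells and 12.48 in TGF-β+DHA cells, and PRSS8 (prostasin), one of the proteases of that system, differed by -2.84. OVOL2 and GRHL2, transcription factors that maintain epithelial identity, were not above background in Snail+DHA cells and had 8.68 and 7.26 in TGF-β+DHA cells. CLDN1, a tight junction claudin, behaved differently: it had 8.79 in Snail+DHA cells and 9.17 in TGF-β+DHA cells, both more than 2-fold below the 11.11 of cells with DHA alone. PKP2 (plakophilin, a desmosomal plaque protein) had 6.46 in Snail+DHA cells, not above background, and 8.10 in TGF-β+DHA cells. It did not differ by 2-fold without DHA (8.17 in Snail cells, 8.32 in TGF-β cells).

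The Snail-type E-box, with the letters CAGGTG or, on the other strand, CACCTG, was searched in the 250 bases before the start of each gene, in sequences from RefSeq (GRCh38.p14), because Snail binds this motif. A promoter was held in the table for 9106 of the 11315 genes compared. The motif was in 110 of 352 promoters (31.2%) of the genes at least 2-fold lower, in 46 of 302 (15.2%) of those at least 2-fold higher, in 15.8% of the promoters of all genes compared and in 17.5% of all 27305 promoters. Among genes at least 2-fold lower both with and without DHA it was in 83 of 237 (35.0%). A promoter was held for 19 of the 37 epithelial genes compared, and the motif was in 10 of these 19 (52.6%). CDH1 and EPCAM had no promoter in the table, so neither is part of this share. The median GC content was 66.4% in promoters of lower genes and 64.4% in those of higher genes and of all genes compared, and its part in the difference was not tested. A match is a description of letters and not a binding site. Shown here are the promoters of 4 of the lower epithelial genes, chosen among those that hold the motif, all in the transcript's direction, with the E-box in capitals: LAD1 (chr1:201399325-201399574, minus strand), RAB25 (chr1:156060910-156061159, plus strand), S100A14, an epithelial calcium-binding protein (chr1:153616326-153616575, minus strand), and DSP (chr6:7541421-7541670, plus strand).
LAD1: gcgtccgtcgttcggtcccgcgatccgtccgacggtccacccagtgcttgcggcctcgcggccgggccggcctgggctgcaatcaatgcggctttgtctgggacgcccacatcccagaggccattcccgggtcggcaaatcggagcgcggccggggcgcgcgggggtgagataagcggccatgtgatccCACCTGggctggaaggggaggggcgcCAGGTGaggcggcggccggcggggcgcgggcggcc
RAB25: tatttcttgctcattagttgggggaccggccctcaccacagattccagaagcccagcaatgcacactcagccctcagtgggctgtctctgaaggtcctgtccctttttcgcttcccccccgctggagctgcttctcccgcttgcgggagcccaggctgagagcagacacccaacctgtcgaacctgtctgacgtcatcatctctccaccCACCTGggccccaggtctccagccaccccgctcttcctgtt
S100A14: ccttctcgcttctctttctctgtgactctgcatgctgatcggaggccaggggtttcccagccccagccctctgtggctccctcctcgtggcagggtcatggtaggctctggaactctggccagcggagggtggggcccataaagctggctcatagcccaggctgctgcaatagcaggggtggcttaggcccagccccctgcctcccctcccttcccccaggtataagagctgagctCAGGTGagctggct
DSP: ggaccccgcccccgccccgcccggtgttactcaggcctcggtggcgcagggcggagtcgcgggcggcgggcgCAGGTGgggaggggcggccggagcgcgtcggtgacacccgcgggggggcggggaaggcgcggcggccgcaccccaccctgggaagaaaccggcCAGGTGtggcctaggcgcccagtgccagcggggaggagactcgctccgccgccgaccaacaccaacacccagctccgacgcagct
The motif starts 61 and 35 bases before the gene start in LAD1, 41 in RAB25, 14 in S100A14, and 178 and 85 in DSP. S100A14 had 7.48 in Snail+DHA cells and 11.17 in TGF-β+DHA cells (12.9-fold).

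**Figure D2:**
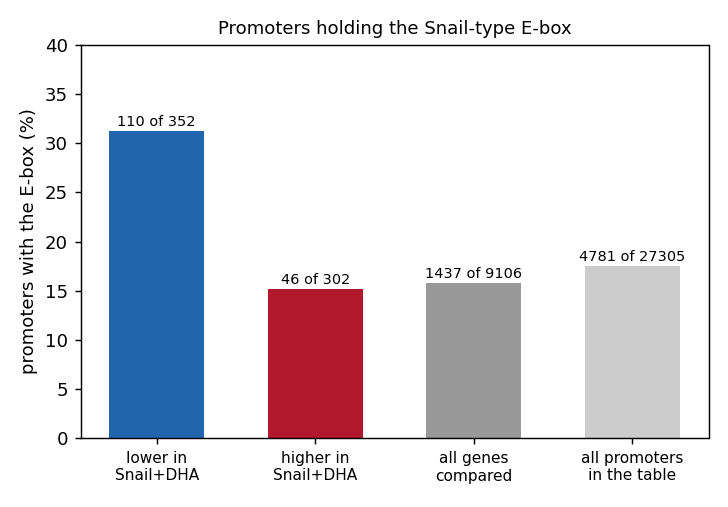
Bars give the percent of promoters (250 bases before the gene start) that hold the Snail-type E-box, for genes at least 2-fold lower and at least 2-fold higher in Snail+DHA than in TGF-β+DHA cells, for all genes compared and for all promoters of the RefSeq table; the counts stand above the bars. The lower genes stand at 31.2% and the other groups between 15.2% and 17.5%.

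Of 33 basal keratin and squamous genes compared, 22 (66.7%, against 4.14% of all genes) were at least 2-fold lower in Snail+DHA cells and 0 at least 2-fold higher, with a median of -1.59. Of the 21 above background on both arrays 15 were at least 2-fold lower. KRT14, the type I keratin of basal cells, had 9.01 in Snail+DHA cells and 13.58 in TGF-β+DHA cells (23.7-fold), and its partner KRT5 had 10.49 in Snail+DHA cells and 13.40 in TGF-β+DHA cells. Both stayed well above background in Snail+DHA cells, unlike E-cadherin. Lower as well were KRT16, a keratin of stressed epidermis (7.88 in Snail+DHA cells, 11.68 in TGF-β+DHA cells), KLK5, a serine protease of squamous epithelia (at least 10.6-fold, with other probes from -2.82 to -0.89), and FGFBP1, a carrier that releases FGF from matrix (7.72 in Snail+DHA cells, 11.78 in TGF-β+DHA cells). SPRR1B, a cornified envelope precursor, was not above background in Snail+DHA cells and had 9.59 in TGF-β+DHA cells. Of the luminal keratin and mammary list 3 of 9 genes were lower (33.3%, against 4.14%) and 1 higher (11.1%, against 3.44%). LCN2, an iron-siderophore binding protein, and SLPI were among the lower ones.

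Of 50 mesenchymal genes compared, 22 (44.0%, against 3.44% of all genes) were at least 2-fold higher in Snail+DHA cells. Of the rest 26 were under 2-fold and 2 (4%, against 4.14%) at least 2-fold lower, and the list median was 0.92. Of the 39 above background on both arrays 15 were at least 2-fold higher. N-cadherin (CDH2) had 10.60 in Snail+DHA cells and 8.84 in TGF-β+DHA cells (3.41-fold), and both were above the 7.04 of cells with DHA alone. Vimentin (VIM), the intermediate filament of mesenchymal cells, had 14.03 in Snail+DHA cells and 13.32 in TGF-β+DHA cells, under 2-fold apart, against 12.04 with DHA alone. For these 2 markers TGF-β+DHA cells therefore stood between cells with DHA alone and Snail+DHA cells. The transcription factor TWIST1 had 10.48 in Snail+DHA cells and 8.63 in TGF-β+DHA cells, and the TGF-β+DHA value lay next to the 8.59 of DHA alone. SNAI2 (Slug), another EMT transcription factor, went in the opposite direction, with 9.58 in Snail+DHA cells and 10.71 in TGF-β+DHA cells. ZEB1, a further repressor of epithelial genes, was above background with Snail alone and not on the other 5 arrays.

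The list also holds genes of contractile cells and fibroblasts, with values on both sides of the 2-fold limit. TAGLN (transgelin, an actin-binding protein of smooth muscle) had 10.51 in Snail+DHA cells and 7.99 in TGF-β+DHA cells, and ACTA2 (smooth muscle actin) had 12.09 in Snail+DHA cells and 10.19 in TGF-β+DHA cells, whereas TPM2 (a tropomyosin) differed by -0.01, CALD1 (caldesmon) by -0.12 and FAP, a fibroblast protease, by -0.28. WNT5A, a non-canonical Wnt ligand, had 8.84 in Snail+DHA cells and was not above background in TGF-β+DHA cells, at least 5.22-fold. CYP1B1, a cytochrome P450 that hydroxylates estradiol, had 9.50 in Snail+DHA cells and 6.79 in TGF-β+DHA cells. THY1, a surface glycoprotein of fibroblasts, was 2.97-fold higher.

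**Figure D3:**
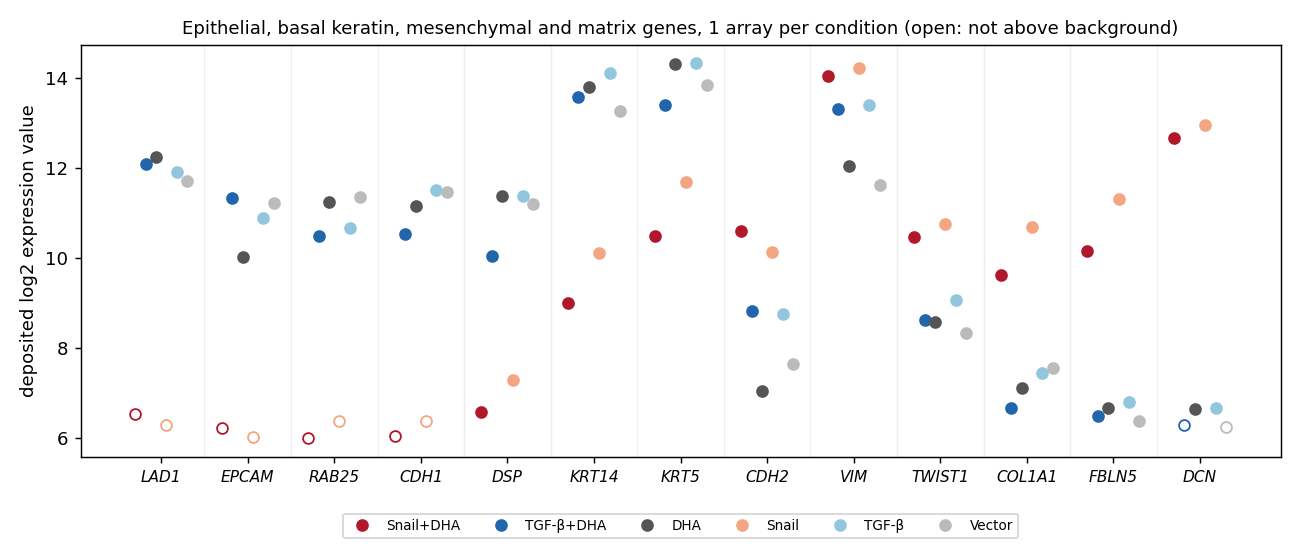
Deposited log2 values (y axis) of 13 epithelial, keratin, mesenchymal and matrix genes (x axis) on the 6 arrays, 1 point per array and no error because each condition has 1 array; open points are not above background, and heights compare arrays within a gene, not genes. The 5 epithelial genes on the left are low on both Snail arrays and high on the 4 others, and CDH2 is highest on Snail+DHA, at 10.60.

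The matrix list, which shares 16 genes with the mesenchymal list, had 20 of 68 genes (29.4%, against 3.44% of all genes) at least 2-fold higher in Snail+DHA cells and 3 (4.41%, against 4.14%) at least 2-fold lower, with a median of 0.47. Of the 52 matrix genes above background on both arrays 14 were at least 2-fold higher. The fibrillar collagens COL1A1 (9.63 in Snail+DHA cells, 6.67 in TGF-β+DHA cells) and COL5A2 (9.94 in Snail+DHA cells, 7.35 in TGF-β+DHA cells) were higher. BGN (biglycan) was at least 6.79-fold higher, FBN2 (fibrillin) differed by 2.86, and IGFBP4, a secreted binding protein of insulin-like growth factors, was 9.28-fold higher. The lower genes included LAMB3, a chain of the epithelial basement membrane laminin (9.71 in Snail+DHA cells, 12.79 in TGF-β+DHA cells), and THBS1, the matricellular protein thrombospondin (10.17 in Snail+DHA cells, 12.46 in TGF-β+DHA cells).

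Of 13 integrins 3 were at least 2-fold lower (23.1%, against 4.14% of all genes) and 1 was at least 2-fold higher (7.69%, against 3.44%). The other 9 were under 2-fold, and the median was -0.23. ITGA6 and ITGB4, which pair as the laminin receptor of hemidesmosomes, were 4.94-fold and 7.58-fold lower. ITGA6 had 7.54 in Snail+DHA cells and 9.84 in TGF-β+DHA cells. ITGA2, a collagen receptor subunit, had 6.57 in Snail+DHA cells and 9.11 in TGF-β+DHA cells. ITGA10, another collagen receptor subunit, was the 1 integrin at least 2-fold higher, with 9.23 in Snail+DHA cells and 7.69 in TGF-β+DHA cells. The same 3 genes and the same 1 gene passed 2-fold without DHA.

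Of the genes known to respond to TGF-β, 2 of 30 were higher (6.67%, against 3.44% of all genes) and 5 lower (16.7%, against 4.14%). The median of -0.01 lay next to the -0.02 of all genes. The 2 higher genes were ANGPTL4 (4.67-fold) and TGFBR3 (at least 3.15-fold). The 5 lower in Snail+DHA cells, and so higher in TGF-β+DHA cells, included PMEPA1, a feedback inhibitor of SMAD signaling (7.27 in Snail+DHA cells, 9.52 in TGF-β+DHA cells), and MMP9, a gelatinase (not above background in Snail+DHA cells, 8.13 in TGF-β+DHA cells, at least 3.04-fold). SPHK1, a sphingosine kinase, had 7.74 in Snail+DHA cells and 9.70 in TGF-β+DHA cells. ID3, which BMP signals induce and which was also on this list, had 8.41 in Snail+DHA cells and 9.59 in TGF-β+DHA cells, both below the 11.15 of DHA alone.

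Inflammatory genes differed in both directions, with 12 of 37 (32.4%, against 3.44% of all genes) at least 2-fold higher in Snail+DHA cells and 6 (16.2%, against 4.14%) at least 2-fold lower. Their median was 0.20 but became -0.08 when only genes above background on both arrays were taken, so no direction is given for the list. Of the 26 genes above background on both arrays 7 were at least 2-fold higher and 4 at least 2-fold lower. Among the higher genes were chemokines: CXCL8 (a neutrophil chemokine) had 11.59 in Snail+DHA cells and 7.95 in TGF-β+DHA cells, CXCL1 had 11.56 in Snail+DHA cells and 8.64 in TGF-β+DHA cells, and CCL2 (a monocyte chemokine) was at least 4.15-fold higher, while CXCL3, CCL5 and CCL20 were under 2-fold. On the array with DHA alone CXCL8 was at 6.51 and CXCL1 at 6.99, below both arrays of the pair. In Vector cells CXCL8 was at 9.53 and CXCL1 at 9.90, each above its TGF-β+DHA value. SOD2, the mitochondrial superoxide dismutase and an NF-κB target, differed by 2.06. Among the lower genes LTB, which forms lymphotoxin on the cell surface, had a value not above background in Snail+DHA cells and 9.08 in TGF-β+DHA cells, IL1A differed by -2.09, and the antiproteases SLPI and PI3 by -1.99 and -1.94.

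Of the EGFR family and ligand list 9 of 21 genes (42.9%, against 4.14% of all genes) were at least 2-fold lower. At least 2-fold higher were 0 genes, and the median was -0.80. Of the 21 genes 7 were not above background on 1 of the arrays. FOS, TGFA, NRG1 and ERBB3 are among them and entered through the array of TGF-β+DHA cells, where they were high. Of the 14 above background on both arrays 5 were at least 2-fold lower. The list also holds genes that are neither receptors nor ligands, and FOS, EGR1, ETV4, DUSP5 and DUSP6 were among the lower ones. The lower receptors and ligands were ERBB3, TGFA, HBEGF and NRG1. The receptors EGFR (-0.73) and ERBB2 (0.26) were under 2-fold. TGFA, an EGFR ligand, had 6.11 in Snail+DHA cells, not above background, and 9.02 in TGF-β+DHA cells (at least 5.61-fold). HBEGF, another ligand, had 6.73 in Snail+DHA cells and 8.33 in TGF-β+DHA cells. ETV4, a transcription factor downstream of ERK, was 2.85-fold lower, and DUSP6, a phosphatase that ERK induces, differed by -1.22. The stem cell associated list had 10 of 21 genes lower (47.6%, against 4.14%) and 2 higher, with a median of -0.74; besides CD24 it included MYC (10.24 in Snail+DHA cells, 11.98 in TGF-β+DHA cells), the Notch ligand JAG2 (not above background in Snail+DHA cells, 8.53 in TGF-β+DHA cells) and ALDH1A3, an aldehyde dehydrogenase used as a stem cell marker (6.73 in Snail+DHA cells, 8.46 in TGF-β+DHA cells). THY1 and the receptor NOTCH3 were the 2 higher genes (9.52%, against 3.44%). Of the 16 genes of this list above background on both arrays 8 were at least 2-fold lower.

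Of the sphingolipid, caveolar and raft list 5 of 31 genes were higher (16.1%, against 3.44% of all genes) and 2 lower (6.45%, against 4.14%), with a median of 0.03. FLOT1 (flotillin, a scaffold of membrane microdomains) had 9.31 in Snail+DHA cells and 7.91 in TGF-β+DHA cells, and MAL2, an apical transport protein of epithelia, had 6.08 in Snail+DHA cells and 9.21 in TGF-β+DHA cells. The sphingosine phosphate receptor S1PR3 was 3.68-fold higher. In cholesterol synthesis 1 of 21 genes was higher (4.76%, against 3.44%) and 0 lower. Of these 21 genes 20 had a positive difference, and the median was 0.35. Without DHA 6 of them were at least 2-fold higher (all genes: 3.38%), with a median of 0.55. In fatty acid synthesis 1 of 17 was higher (5.88%, against 3.44%) and 3 were lower (17.6%, against 4.14%). FADS1, the delta-5 desaturase of polyunsaturated fatty acids, had 10.86 in Snail+DHA cells and 9.57 in TGF-β+DHA cells, and FASN, the fatty acid synthase, had 11.53 in Snail+DHA cells and 12.97 in TGF-β+DHA cells. The cell cycle list showed little, with 0 of 52 higher and 2 lower (3.85%, against 4.14%) and a median of -0.17. Its median stood 0.91 above DHA alone in Snail+DHA cells and 1.03 above it in TGF-β+DHA cells, 2 values that share the DHA array. The DHA array was below Vector for genes such as CCNA2 (8.06, Vector 9.20) and UBE2C (10.62, Vector 12.10). It was above Vector for others, such as CCND1 (11.47, Vector 10.78). Of the leukocyte list 1 of 8 genes was higher (12.5%, against 3.44%) and 1 was lower (12.5%, against 4.14%). The higher gene was the macrophage and lysosome gene CD68 (10.54 in Snail+DHA cells, 8.78 in TGF-β+DHA cells). The other probes of CD68 differed by 0.46 to 0.98, under 2-fold. CD14, above background on 6 arrays, differed by 0.45, and PTPRC and CD3D were above background on 0.

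**Figure D4:**
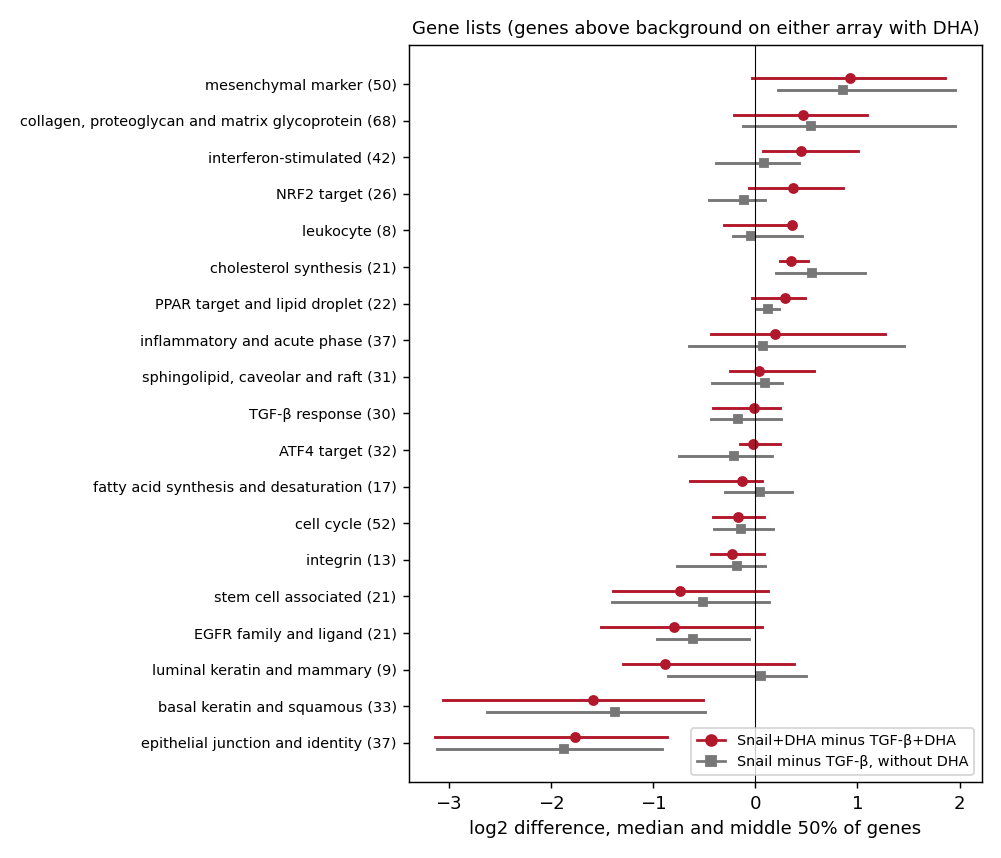
Median log2 difference (marker) and middle 50% of genes (line) for each gene list with at least 5 genes compared, with DHA (red circles, upper of each pair) and without DHA (gray squares), over the genes above background on either array with DHA; the number of genes stands in parentheses and there is 1 array per condition. The epithelial list is lowest, at -1.76, and the mesenchymal list highest, at 0.92.

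To see how far these differences were those of the inducers without DHA, the same subtraction was made on the Snail and TGF-β arrays, which share no array with the pair under DHA. Without DHA 435 genes of 12886 were at least 2-fold higher in Snail cells (3.38%) and 602 at least 2-fold lower (4.67%). Of those 435, 216 (49.7%) were at least 2-fold higher with DHA as well and 417 (95.9%) had the same sign. Of the 602, 307 (51.0%) were at least 2-fold lower with DHA and 580 (96.3%) had the same sign. Counted the other way, 55.5% of the genes higher with DHA and 65.6% of those lower with DHA had passed 2-fold without it. Across the 13188 genes above background on any of the 4 arrays, Pearson's r between the 2 differences was 0.74 and Spearman's rho 0.58, as a description, since genes are not independent replicates.

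The share of differences still 2-fold under DHA rose with their size without DHA. A larger difference must shrink more to fall under the fixed 2-fold line, so a rise is built into this count. Of genes higher by 1 to 2 on the log2 scale without DHA 39.8% stayed past 2-fold, of those higher by 2 to 3 80.3%, and of those higher by more than 3 93.3% (28 of 30). On the lower side the shares were 40.3%, 84.9% and 97.8% (44 of 45). The genes higher without DHA had a median difference of 0.99 with DHA and 1.43 without it, and the lower genes -1.01 with DHA and -1.38 without it. Genes chosen on the DHA arrays instead had larger medians there (1.35 and -1.41 with DHA, 1.15 and -1.27 without it), so each set was larger in the pair of arrays that chose it.

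Set against the array with DHA alone, the genes that differed without DHA had medians further from it in Snail+DHA than in TGF-β+DHA cells. The genes higher in Snail cells without DHA stood at a median of 0.86 above DHA alone in Snail+DHA cells and of -0.08 in TGF-β+DHA cells. The genes lower in Snail cells without DHA stood at -1.22 in Snail+DHA cells and -0.14 in TGF-β+DHA cells. Both values share the DHA array, and the cell cycle list stood above that array on both sides (0.91 in Snail+DHA cells, 1.03 in TGF-β+DHA cells). The median of all genes against DHA alone is not given here, so these medians have no background beside them. The epithelial list gave -2.43 in Snail+DHA cells and -0.43 in TGF-β+DHA cells.

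The counts with and without DHA were then set side by side for the lists. Both counts cover only list genes above background on at least 1 of the 2 arrays with DHA. Genes above background only without DHA are left out, so differences seen only there are missed. Of the 12886 genes compared without DHA, a set filtered on the arrays without DHA, 3.38% were higher and 4.67% lower. Of the epithelial genes 27 were lower with DHA and 27 without, 25 of them in both, and the medians were -1.76 with DHA and -1.87 without. For mesenchymal genes 22 were higher with DHA and 22 without, 20 of them in both, and for matrix genes 20 with DHA and 22 without, 16 of them in both. Matrix genes lower in Snail cells numbered 3 with DHA and 8 without, 2 of them in both. The interferon-stimulated list differed more between the 2 pairs. With DHA 11 of 42 genes were higher (26.2%, against 3.44% of all genes) and 3 lower (7.14%, against 4.14%). Of the 36 genes above background on both arrays with DHA 8 were higher and 3 lower. Of the same 42 genes 4 were higher and 7 lower without DHA, where the shares of all genes compared without DHA were 3.38% and 4.67%. The medians were 0.45 with DHA and 0.09 without. NRF2 targets had 4 of 26 higher (15.4%, against 3.44%) and 1 lower (3.85%, against 4.14%) with DHA. Without DHA 1 of the 26 was higher and 3 were lower, beside the 3.38% and 4.67% of all genes. These are few genes on single arrays, and the change between the pairs was not tested. The luminal list had medians of -0.88 with DHA and 0.06 without.

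Several genes were among the largest differences under DHA that were less than 0.5 on the log2 scale without it. ANGPTL4, a PPAR target that inhibits lipoprotein lipase, had 11.39 in Snail+DHA cells and 9.17 in TGF-β+DHA cells, against 7.19 with DHA alone and 6.79 to 6.90 on the 3 arrays without DHA. Its other probes above background differed less, by 0.76 to 0.97. B4GALNT1, which makes the gangliosides GM2 and GD2, had 9.03 in Snail+DHA cells and 6.95 in TGF-β+DHA cells, with 7.19 in Snail cells and 6.75 in TGF-β cells. GCNT3, a mucin glycosyltransferase, had 8.38 in Snail+DHA cells and was above background on no other array (at least 3.80-fold). In the other direction KRT7, a simple epithelial keratin, had 9.15 in Snail+DHA cells and 11.37 in TGF-β+DHA cells, with 10.90 in Snail cells and 10.75 in TGF-β cells, so that its value was lower with DHA on the Snail side and higher with DHA on the TGF-β side. EGR1, an immediate early transcription factor, had 9.31 in Snail+DHA cells and 11.54 in TGF-β+DHA cells, and 11.86 to 12.24 on the 4 other arrays. These gaps between differences rest on 4 single arrays and were not tested.

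Stress and signaling genes gave further cases in which the 2 pairs had unequal differences. HMOX1, the heme oxygenase that NRF2 induces, had 9.85 in Snail+DHA cells and 6.70 in TGF-β+DHA cells (8.89-fold), against 6.73 with DHA alone, 7.56 in Snail cells and 6.90 in TGF-β cells. Other NRF2 targets did not share this size: AKR1B10 (an aldo-keto reductase) differed by 1.51 with DHA and -0.95 without it, BLVRB (biliverdin reductase) by 1.23 and TXNRD1 (thioredoxin reductase) by 0.97, and AKR1C2 was lower (-1.60). DDIT3 (CHOP, a factor of the stress response) had 9.26 in Snail+DHA cells and 7.53 in TGF-β+DHA cells. The whole ATF4 list had 3 of 32 genes higher (9.38%, against 3.44% of all genes), 1 lower (3.12%, against 4.14%) and a median of -0.02. FOS was not above background in Snail+DHA cells and had 9.58 in TGF-β+DHA cells (at least 8.29-fold), with 8.97 in Snail cells and 10.01 in TGF-β cells. ACSL1, a PPAR-responsive acyl-CoA synthetase, differed by 1.34, and 3 of 22 PPAR and lipid droplet genes were higher (13.6%, against 3.44%) and 0 lower.

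Interferon-stimulated genes split within the list. IFI44 had 9.61 in Snail+DHA cells and 7.25 in TGF-β+DHA cells (5.10-fold), with 8.58 in Snail cells and 8.11 in TGF-β cells, and IFIT3 had 8.14 in Snail+DHA cells and 6.49 in TGF-β+DHA cells, with 7.82 in Snail cells and 7.60 in TGF-β cells. The TGF-β+DHA values of both genes lay close to those of DHA alone (7.41 for IFI44 and 6.58 for IFIT3). PARP12 was lower (7.09 in Snail+DHA cells, 8.24 in TGF-β+DHA cells). MX1, an antiviral GTPase, had 6.91 in Snail+DHA cells and 6.89 in TGF-β+DHA cells, but 6.76 in Snail cells and 8.67 in TGF-β cells, so its difference was present without DHA alone. The common-median scaling left IFIT1 just under 2-fold (0.96).

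Some differences seen without DHA were smaller or not seen with it, among them those of several matrix genes. COL8A1, a short-chain collagen, had 8.55 in Snail+DHA cells and 8.99 in TGF-β+DHA cells, against 11.35 in Snail cells and 8.54 in TGF-β cells. CCN1, a matricellular protein that YAP and serum factors induce, had 10.22 in Snail+DHA cells and 10.41 in TGF-β+DHA cells, against 12.71 in Snail cells and 10.51 in TGF-β cells. In both genes the array with Snail alone had the highest value of the 6. COL3A1, a fibrillar collagen, was still higher with DHA but less so, with 8.86 in Snail+DHA cells and a value not above background in TGF-β+DHA cells, against 11.46 in Snail cells. HAS2, a hyaluronan synthase, had 6.66 in Snail+DHA cells and 7.93 in Snail cells and was not above background on the TGF-β arrays. For LEMD1, BBOX1 and PAMR1 the TGF-β value without DHA (8.46, 8.16 and 8.74) was above background, and so was the value with DHA alone (7.54, 8.29 and 7.62), but neither array of the pair under DHA was. The death ligand TNFSF10 had the same pattern, with 8.43 in TGF-β cells.

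Some genes changed sign. THBS1 differed by -2.29 with DHA and 0.78 without it, and CDH11, a cadherin of mesenchymal cells, had 7.04 in Snail+DHA cells and 8.62 in TGF-β+DHA cells, with 8.07 in Snail cells and 7.51 in TGF-β cells. MUC1, a transmembrane mucin, differed by 1.55 with DHA and -0.38 without it. Of all genes at least 2-fold different in 1 of the pairs, 2 were at least 2-fold different in the opposite direction in the other. The amino acid transporter SLC7A5 kept its direction with a smaller gap under DHA, with 10.69 in Snail+DHA cells and 12.14 in TGF-β+DHA cells, against 9.31 in Snail cells and 12.52 in TGF-β cells.

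**Figure D5:**
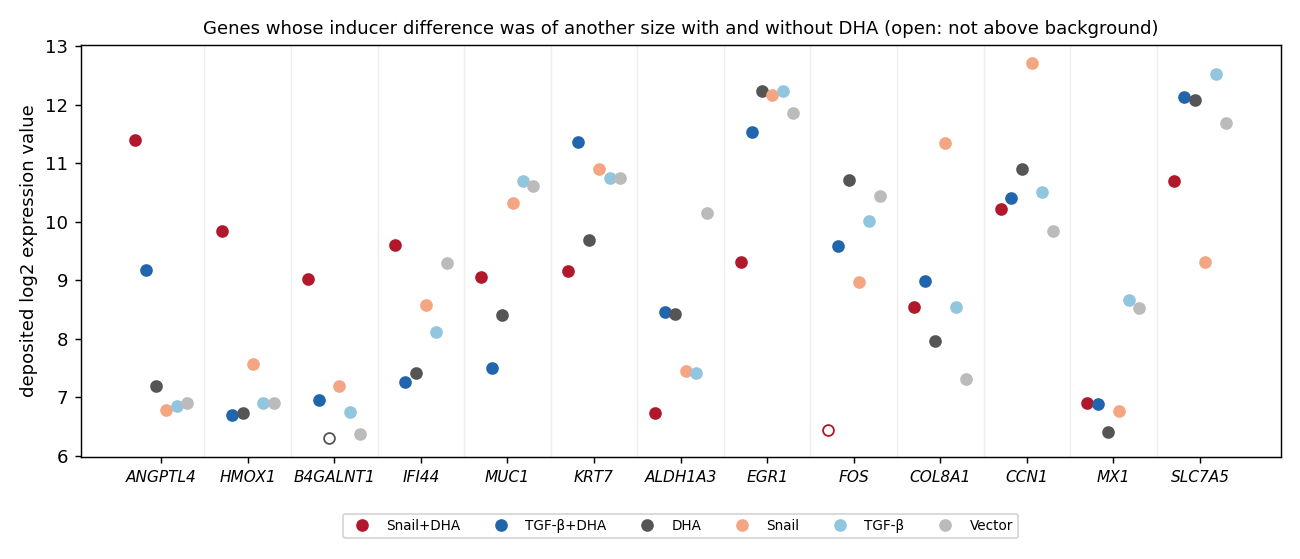
Deposited log2 values (y axis) of 13 genes (x axis) whose Snail minus TGF-β difference had another size or direction with DHA than without it, 1 point per array with no replicates; open points are not above background. ANGPTL4 and HMOX1 are highest on Snail+DHA (11.39 and 9.85), EGR1 is lowest there (9.31), and COL8A1 and CCN1 are highest on Snail without DHA.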

How the data were processed

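RNA of 6 HMLE cultures was hybridized to Illumina HumanHT-12 v4 arrays, 1 for each culture, all on 1 BeadChip, with 47323 probes. The authors made the non-normalized table with the IlluminaExpressionFileCreator module of GenePattern and deposited it in units of intensity; they then quantile normalized it and deposited log2 values, with a median of 6.30 on each array. The base of this logarithm is inferred from the range of the values. Between 1431 and 1805 deposited intensities per array exceed 65535, the top of a 16-bit scanner, and their natural logarithm has the order of the log2 table (Spearman's rho of 1), so the signal was restored as 2 raised to that logarithm. The deposited log2 values gave every difference, and the restored signals gave detection: a probe counted as above background where its signal had p under 0.05 against a background distribution centred on the low-signal peak of that array, with the spread on the lower side of the peak, which held for 35.9% to 47.7% of probes. No detection p-values or bead numbers were used here.

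Of the probes 30113 had 1 gene symbol, 8 several and 17202 none, in the platform's annotation, and 20020 of the 20046 genes were in the RefSeq gene table. Each gene took its probe of highest mean. An "at least" fold sets the higher value against the higher of the other array's lowest value above background and the gene's own value there. The counts, list medians and named genes were recomputed with limma 3.58.1 (normexp on the restored signals, offset of 50, under R 4.3.3), with common-median scaling, with an offset of 16 added, with other detection filters and with other probe rules. Python 3.11.15 with numpy 2.4.6 and pandas 2.3.3 ran the rest, and the scripts were tested on simulated data.

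The comparison, the 20 gene lists and the tests were chosen with earlier results of these data known. Named genes were drawn from the 15 largest differences in each direction, up to 6 genes per list, genes of opposite direction and the study's markers. They were also drawn from the 8 largest differences without DHA that were under 0.5 with it and the 8 of the opposite kind. Not every such gene is named. Among those left out are TMEFF2, GNG11, GLMP, PHACTR3, MPZL2 and CKMT1A, all among the 15 largest, and CXCL2 and ALDH3A1. Further list members were named after their values were seen. KRT17 and TP63 were not analysed here.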

Additional observations from a re-analysis of the deposited data

Results flagged for a closer look

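SNORA12 and SNORD3D, both small nucleolar RNA genes, were at least 2-fold different in opposite directions with and without DHA. SNORA12 differed by -1.19 with DHA and 1.44 without it, with values of 7.23 in Snail+DHA cells and 8.42 in TGF-β+DHA cells, and of 9.93 in Snail cells and 8.49 in TGF-β cells. SNORD3D, which has near-identical copies that its probe may also read, differed by -1.15 with DHA and 1.13 without it, with values of 7.83 in Snail+DHA cells and 8.98 in TGF-β+DHA cells, and of 10.33 in Snail cells and 9.20 in TGF-β cells. In both genes the TGF-β values lay close together and the Snail values apart. The difference between the pairs was not tested, since each value comes from 1 array.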

How the results depend on the processing

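The counts were recomputed under 8 alternatives chosen at the outset. They stayed within 1.5 times of the 389 higher and 468 lower genes, with 290 to 412 higher and 328 to 479 lower, except under common-median scaling, which gave 249 higher and 716 lower, of which 249 and 466 were also called after quantile normalization. The number of genes lower without DHA that stayed lower with it was 199 of 415 when only genes above background on both arrays were taken, since fewer genes were then compared, and the share was 48.0% against 51.0%. Across the 9 settings, including 1 with the median difference subtracted that was chosen after seeing the data, 0 of 1197 recomputed values of named genes reversed and 25 crossed the 2-fold line, among them MCM3, MCM4, MCM5 and MCM7, which passed it with common-median scaling. Of 179 list medians 2 reversed: the inflammatory list gave -0.079 with genes above background on both arrays, and the leukocyte list -0.043 with no detection filter. The cause was not tested. No paired analysis was possible because each condition has 1 array. Signal over background limits the 74 higher and 140 lower genes that were not above background on 1 array.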

Other observations

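Probes with no gene symbol or with several were in no comparison of genes. Of the 4919 above background on at least 1 of the 2 arrays, 62 (1.26%) were at least 2-fold higher in Snail+DHA cells than in TGF-β+DHA cells and 102 (2.07%) at least 2-fold lower.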
